A study of Mus musculus with 6 samples.

Results

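The neurotensin and somatostatin systems are described here through 8 of the 32285 genes in the deposited tables, across the cell classes of the mouse septal area. The genes were taken by symbol: the peptide precursors Nts and Sst, the neurotensin receptors Ntsr1 and Ntsr2, and the somatostatin receptors Sstr1, Sstr2, Sstr3 and Sstr4. Each symbol matched 1 row of the tables.

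Neurotensin is a small peptide that neurons cut from the Nts precursor, store in dense-core vesicles and release on strong firing. It acts through Ntsr1, a receptor that couples mainly to Gq and raises neuronal excitability, and through Ntsr2, a receptor of lower affinity known from astrocytes as well as neurons. Somatostatin, cut from Sst, is an inhibitory peptide of GABAergic neurons in the forebrain, and its receptors couple to Gi and open potassium channels or close calcium channels. The lateral septum is a GABAergic region between hippocampus and hypothalamus in which peptides of both families have long been described, and its neurotensin neurons have been studied in mice for feeding and stress.

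The data are 6 libraries of wild-type mouse septal area, which form 1 group with no treatment. In this droplet method a barcode marks the nucleus and a random tag marks the RNA molecule, and the tags (UMIs) are counted. Strain, age, sex and the number of animals are not stated in the labels, and nothing says whether the libraries come from separate animals, so the p-values measure only the spread between these 6 libraries, which may be technical. The series title speaks of nuclei and the protocol text of cells, and the barcodes are called nuclei here.

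The libraries held 70183544 to 95175260 UMIs each, and 54623 of 55537 barcodes had no fewer than 500 detected genes and were kept. The median nucleus of a library held 5175 to 6863 UMIs, and pairs of libraries shared 12 to 43 barcodes. Nuclei were sorted into classes by summed UMIs of fixed marker genes that include none of the 8 genes, and 2443 barcodes (4.47%) with markers of unrelated classes were set aside. Of the classes, 15 held enough nuclei in every library for a level, among them 10846 astrocyte-like nuclei and 24399 neurons. The neurons split into 19124 GABAergic-like nuclei, 951 glutamatergic-like nuclei, 211 nuclei with Chat and Slc5a7, genes of acetylcholine synthesis and choline uptake, and 4113 other neurons. Within the GABAergic-like nuclei 10409 were lateral septum-like, 995 striatal medium spiny-like, 597 MGE-like (with genes of the medial ganglionic eminence lineage such as Lhx6 and Nkx2-1) and 7123 fell in none of these. The defining markers of each class were detected at 3 CPM or more (UMIs of the gene per 1000000 UMIs of the class in a library), except that the MGE-like class had 7 of its 8 markers at that level, and that the class gated on Chat and Slc5a7 had 2 of 3 and is called by its genes. The 8 MGE markers summed to 1696 CPM in MGE-like and 1477 CPM in lateral septum-like nuclei, where 3 of the 8 reached 3 CPM. Their sum was higher still in oligodendrocyte precursor-like nuclei (3426 CPM), so it does not by itself set the MGE-like class apart. The cut between lateral septum-like and other GABAergic nuclei runs through a continuum, and 2400 GABAergic-like nuclei (12.5%) lay within 20% of it.

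Positions are from the GENCODE M21 annotation of GRCm38, since no source used here names the genome build of the deposited tables. Nts (ENSMUSG00000019890) lies at chr10:102481756-102490486 on the minus strand and Sst (ENSMUSG00000004366) at chr16:23889573-23890958 on the minus strand. The neurotensin receptor genes are Ntsr1 (ENSMUSG00000027568, chr2:180499976-180544980, plus strand) and Ntsr2 (ENSMUSG00000020591, chr12:16653382-16660227, plus strand). The somatostatin receptor genes are Sstr1 (ENSMUSG00000035431, chr12:58211772-58214444, plus strand), Sstr2 (ENSMUSG00000047904, chr11:113619342-113626028, plus strand), Sstr3 (ENSMUSG00000044933, chr15:78537008-78544685, minus strand) and Sstr4 (ENSMUSG00000037014, chr2:148395344-148396767, plus strand). Sstr2 overlaps Slc39a11 on the opposite strand, and no other of the 8 genes overlaps a neighbour.

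Of the 4 members that were higher in nuclei with activity genes, the 3 with a motif match (Nts, Sst and Sstr2) are shown here, and the promoters of Sstr3 held no match. Factors of the CREB and AP-1 families act at motifs of this kind in activity-regulated genes. RefSeq promoters (GRCm38.p6) were searched over the 250 bases before each start site for the cyclic AMP response element TGACGTCA and the AP-1 motif TGANTCA. Both motifs read the same on either strand, both strands were searched, and the motifs do not overlap each other. The table held 8 promoters for 7 of the 8 members, with none for Sstr1. The element TGACGTCA begins at base -48 of Sst and base -58 of Sstr2, and 508 of 32851 promoters (1.55%) hold it. The AP-1 motif begins at base -207 of Nts, and 2217 promoters (6.75%) hold it. A match is a description of the letters and not of a bound site. Bases are counted from the RefSeq start, which differs from the GENCODE one, so the stretch of Sst lies upstream of the RefSeq start but inside the GENCODE gene given above. The stretches lie at chr10:102490487-102490668 (minus strand) for Nts, chr16:23890874-23890903 (minus strand) for Sst and chr11:113619077-113619326 (plus strand) for Sstr2, written 5′ to 3′ on the strand of the gene with the motif in capitals.
Nts: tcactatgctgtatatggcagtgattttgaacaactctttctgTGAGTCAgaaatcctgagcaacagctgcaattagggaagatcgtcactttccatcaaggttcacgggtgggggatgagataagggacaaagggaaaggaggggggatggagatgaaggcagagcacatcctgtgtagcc
Sst: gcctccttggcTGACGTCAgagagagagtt
Sstr2: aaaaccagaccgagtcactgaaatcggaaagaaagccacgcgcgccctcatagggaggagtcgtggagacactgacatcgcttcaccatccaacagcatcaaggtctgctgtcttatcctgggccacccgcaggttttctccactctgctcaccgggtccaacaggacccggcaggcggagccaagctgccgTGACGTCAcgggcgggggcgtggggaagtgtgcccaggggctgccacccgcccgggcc

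Nts UMIs were mostly in neurons and above all in lateral septum-like neurons. Of 3355 Nts UMIs in the 15 classes, 91.5% were in neurons and 61.2% in the lateral septum-like class. These shares also follow the size and depth of the classes. The lateral septum-like class held 177802268 UMIs of all genes and the astrocyte-like class 45811069. Per UMI of the class, lateral septum-like nuclei gave 11.8 ± 4.25 CPM (SD, n = 6; lowest 7.44, median 10.6, highest 19.6). Other GABAergic nuclei gave 7.09 ± 1.52 CPM (lowest 4.76, median 7.51, highest 8.54) and glutamatergic-like nuclei 1.76 ± 0.993 CPM (lowest 0.662, median 1.48, highest 3.13). The lateral septum-like and other GABAergic values overlapped, while all 6 lateral septum-like values lay above all 6 glutamatergic-like ones. Nuclei with Chat and Slc5a7 gave 8.21 ± 8.64 CPM from 46 UMIs, of which 26 came from replicate 4, so their place in the order rests on that library. The pericyte or smooth muscle-like class had the highest mean, 13.3 ± 11.3 CPM, but from 12 UMIs and with 2 libraries at 0. In the glial classes Nts averaged 1.85 to 3.96 CPM.

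A few lateral septum-like nuclei carried a large part of the Nts. At least 1 Nts UMI was found in 7.68 ± 0.884% of lateral septum-like nuclei, against 1.11% of astrocyte-like nuclei, which should lack the gene. Lateral septum-like nuclei are deeper, with a median of 12973 to 16315.5 UMIs per library against 3211 to 4216 in astrocyte-like nuclei. With every nucleus thinned to 2000 UMIs, the shares were 1.88 ± 0.442% of lateral septum-like and 0.591% of astrocyte-like nuclei. Of the 10409 lateral septum-like nuclei, 9613 had no Nts UMI, 475 had 1, 136 had 2 and 185 (1.78%) had 3 or more, with 46 in the highest. Those 185 nuclei held 40.1 to 77.6% of the class's Nts UMIs in each library. Among the 10846 astrocyte-like nuclei only 2 had 3 or more.

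Sst was low in every class. In the glial classes it averaged 1.41 to 2.93 CPM, and neuroblast-like nuclei gave 5.11 CPM from 7 UMIs. The neuroblast-like and lateral septum-like values overlapped. The lateral septum-like class gave 3.66 ± 0.733 CPM (lowest 2.93, median 3.4, highest 4.61) and held 46.3% of the 1388 Sst UMIs. That share also follows the size and depth of the class. Glutamatergic-like nuclei had the lowest mean among the GABAergic and glutamatergic classes, 0.764 ± 0.858 CPM, and their values did not overlap with those of the lateral septum-like class. The highest mean, 8.74 ± 13.4 CPM, belonged to the MGE-like class, the lineage that gives rise to somatostatin interneurons in the cortex. Its values ran from 0 through a median of 4.17 to 35.8 CPM, and in replicate 5 a single nucleus held 71 of the 81 Sst UMIs, without which that library gave 4.45 CPM. In the thinned nuclei Sst was found in 0.839% of lateral septum-like nuclei and in 0.388% of astrocyte-like nuclei, and the shares of 0.499 ± 0.216% in other GABAergic and 0.225 ± 0.362% in glutamatergic-like nuclei are not above that background beyond their spread. The lateral septum-like class held 3.20 Nts UMIs per Sst UMI and the astrocyte-like class 1.25. The ratio of the MGE-like class is not given, because the single nucleus in replicate 5 sets it.

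**Figure D1:**
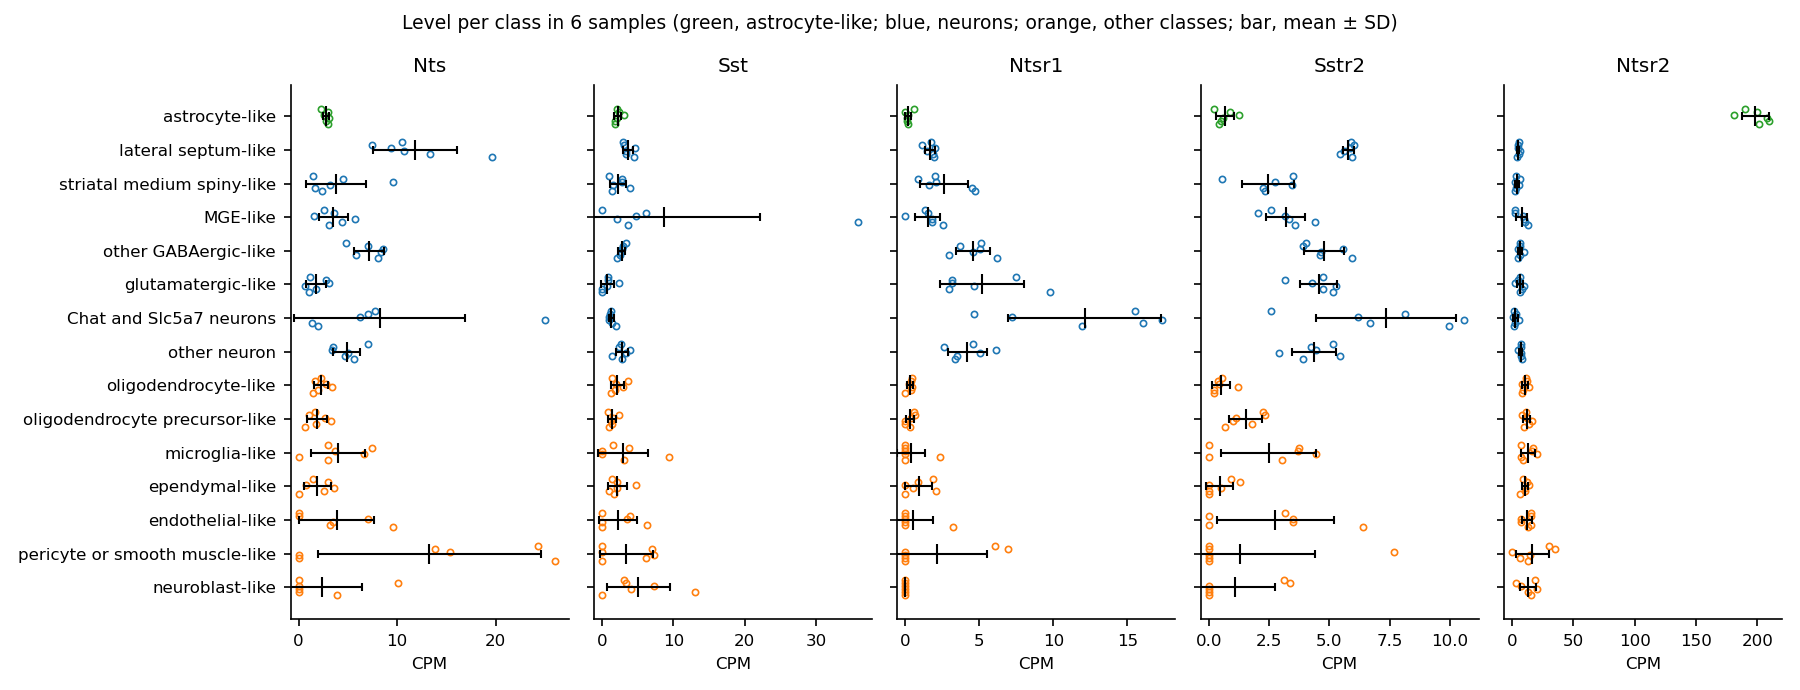
Level of Nts, Sst, Ntsr1, Sstr2 and Ntsr2 in CPM (horizontal axes) in 15 classes, astrocyte-like at the top; each point is 1 of 6 libraries and the bar is the mean with SD. Ntsr2 stands at 198 CPM in astrocyte-like nuclei, above every value of the other classes, while every value of the remaining genes stays below 40 CPM.

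Ntsr2 was an astrocyte transcript in these libraries. It gave 198 ± 10.9 CPM in astrocyte-like nuclei (lowest 181, median 201, highest 210), which held 76.6% of its 11870 UMIs. All 6 astrocyte-like values lay above every value of the other classes. The next class, pericyte or smooth muscle-like, gave 16.5 ± 13.5 CPM from 15 UMIs, and oligodendrocyte-like nuclei gave 10.4 ± 2.41 CPM. The classes of neurons averaged 2.71 to 7.76 CPM. A Ntsr2 UMI was found in 51.7 ± 2.69% of astrocyte-like nuclei, and in 32.3 ± 2.15% after thinning, which left out 955 shallower nuclei. In oligodendrocyte-like nuclei, taken as the class that should lack it, the shares were 3.69% and, thinned, 1.90%, and the median nucleus there held 2777.5 to 3995 UMIs in a library.

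Ntsr1 was found in neurons, with its highest mean outside the lateral septum-like class. Nuclei with Chat and Slc5a7 gave 12.1 ± 5.17 CPM from 59 UMIs (lowest 4.66, median 13.7, highest 17.3), with a Ntsr1 UMI in 14.1% of nuclei, 4.11% thinned. Glutamatergic-like nuclei gave 5.19 ± 2.83 CPM (lowest 2.96, median 3.89, highest 9.79) and other GABAergic nuclei 4.59 ± 1.14 CPM. These neighbours in the order overlapped. The lateral septum-like class gave 1.69 ± 0.342 CPM (lowest 1.12, median 1.80, highest 2.03), below all 6 values of the nuclei with Chat and Slc5a7 and below all 6 glutamatergic-like values. Glial classes averaged 0.186 to 0.888 CPM, and 0.0733% of astrocyte-like nuclei had a Ntsr1 UMI. The median nucleus with Chat and Slc5a7 held 15977 to 19518 UMIs in a library.

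Sstr2 was spread over neurons, and the other somatostatin receptors were near the limit of detection. Sstr2 gave 5.79 ± 0.230 CPM in the lateral septum-like class (lowest 5.43, median 5.89, highest 6.02), 4.78 ± 0.817 CPM in other GABAergic, 4.56 ± 0.777 CPM in glutamatergic-like and 2.47 ± 1.08 CPM in medium spiny-like nuclei. Nuclei with Chat and Slc5a7 had the highest mean, 7.36 ± 2.91 CPM from 36 UMIs, overlapping the lateral septum-like values. After thinning, 1.23% of lateral septum-like and 0.120% of astrocyte-like nuclei had a Sstr2 UMI. Sstr1 differed in place from the others, with its highest mean in oligodendrocyte precursor-like nuclei, 1.90 ± 0.371 CPM from 34 UMIs (lowest 1.34, median 1.88, highest 2.32), against 0.289 CPM in the lateral septum-like class. Sstr3 gave 0.920 ± 0.265 CPM in the lateral septum-like class from 165 UMIs and 1.04 ± 1.18 CPM in the glutamatergic-like class from 12. Sstr4 gave 77 UMIs in all classes together, 47 of them lateral septum-like (0.269 ± 0.147 CPM), and none in 10846 astrocyte-like nuclei, where a count of 0 over the class allows up to 0.0655 CPM.

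Astrocyte-like nuclei were set against all neurons of the same libraries, and the 2 systems divided by cell type: the receptor Ntsr2 was higher in astrocytes, and both peptides, Ntsr1, Sstr2 and Sstr3 were lower. All 6 members that passed the filter on low counts passed edgeR's quasi-likelihood test with Benjamini-Hochberg adjustment over all genes, 1 higher and 5 lower, where 81.2% of the 18623 genes tested passed, 39.9% higher and 41.3% lower. These classes differ in most genes, so the count of members says little and the sizes carry the result. Ntsr2 gave 198 ± 10.9 CPM in astrocyte-like nuclei and 5.71 ± 1.09 CPM in neurons (SD, n = 6 each), a log2 difference of 5.05 ± 0.06 (SE; edgeR adjusted p = 6.2e-20). Ntsr1 gave 0.186 ± 0.190 CPM in astrocyte-like nuclei and 3.03 ± 0.633 CPM in neurons, a log2 difference of -3.98 ± 0.30 (edgeR adjusted p = 1.72e-09). The astrocyte-like and neuronal values of both receptors did not overlap. Sstr2 gave 0.660 ± 0.371 CPM in astrocyte-like nuclei and 5.15 ± 0.295 CPM in neurons, a log2 difference of -3.07 ± 0.21 (edgeR adjusted p = 3.4e-10). Nts gave 2.74 ± 0.312 CPM (2.22 to 3.06) in astrocyte-like nuclei and 8.88 ± 2.22 CPM (6.53 to 13) in neurons, a log2 difference of -1.74 ± 0.12 (edgeR adjusted p = 3.69e-10). Sst gave 2.20 ± 0.463 CPM (1.76 to 3.01) in astrocyte-like nuclei and 3.31 ± 0.543 CPM (2.77 to 4.07) in neurons. The Sst values overlapped, and the log2 difference was -0.65 ± 0.15 (edgeR adjusted p = 0.000691). Sstr3 gave 0.353 CPM in astrocyte-like nuclei and 0.751 CPM in neurons on average, lower in astrocyte-like nuclei in 5 of 6 libraries (log2 difference -1.13 ± 0.38, edgeR adjusted p = 0.0114). Sstr1 and Sstr4 were too low to test.

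Neuronal RNA was also present in the astrocyte-like nuclei. The summed level of the 7 neuron markers was 1493 CPM (1324 to 1669) there and 10117 CPM (9642 to 10703) in neurons, and the part of this in the Nts and Sst levels of astrocyte-like nuclei was not tested. The astrocyte markers summed to 13104 CPM in astrocyte-like nuclei and 456 CPM (389 to 565) in neurons. Of 15 genes for peptide processing and secretory granules, 2 were higher and 12 lower in astrocyte-like nuclei. The higher ones were Cpe, a carboxypeptidase that trims peptide precursors (log2 difference 3.11, 2695 CPM in astrocyte-like nuclei and 299 CPM in neurons), and Scg3, a granule protein (1.89). Cadps and Cadps2, which prime dense-core vesicles for release, were lower (-2.85 and -2.20). Sort1, which encodes sortilin, a sorting receptor that binds neurotensin, gave 145 ± 6.27 CPM in astrocyte-like nuclei and 78.2 ± 3.29 CPM in neurons (log2 difference 0.82 ± 0.03, edgeR adjusted p = 2.41e-13). Its relative Sorl1 gave 113 CPM in astrocyte-like nuclei and 84.7 CPM in neurons, a log2 difference of 0.35. Among 24 genes of receptor signalling 10 were higher and 12 lower in astrocyte-like nuclei. Gnao1, a G protein alpha subunit of the Gi/o family, and the receptor kinase gene Grk3 were higher (1.95 and 2.48). Gnai1 and Kcnj6, a G protein-gated potassium channel gene, were lower (-2.30 and -3.74).

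GABAergic-like neurons were then set against glutamatergic-like neurons. Both peptides were higher in GABAergic-like nuclei and Ntsr1 was lower. Of 6 members tested 3 passed, 2 higher and 1 lower, where 29.1% of 17570 genes passed, 15.9% higher and 13.2% lower. Nts gave 9.54 ± 2.49 CPM in GABAergic-like nuclei (lowest 7.01, median 9.02, highest 14.2) and 1.76 ± 0.993 CPM in glutamatergic-like nuclei (0.662 to 3.13), a log2 difference of 2.29 ± 0.27 (edgeR adjusted p = 1.37e-05). Sst gave 3.50 ± 0.647 CPM in GABAergic-like nuclei (2.91 to 4.52) and 0.764 ± 0.858 CPM in glutamatergic-like nuclei (0 to 2.35), a log2 difference of 2.01 ± 0.43 (edgeR adjusted p = 0.00259). Neither peptide's values overlapped between the classes. Ntsr1 gave 2.67 ± 0.560 CPM in GABAergic-like nuclei (1.86 to 3.53) and 5.19 ± 2.83 CPM in glutamatergic-like nuclei (2.96 to 9.79). The Ntsr1 ranges overlapped, but it was lower in GABAergic-like nuclei in 6 of 6 libraries, with a log2 difference of -0.95 ± 0.24 (edgeR adjusted p = 0.00784). Sstr2 averaged 5.22 CPM in GABAergic-like nuclei, against 4.56 CPM in glutamatergic-like ones (log2 difference 0.20 ± 0.18, edgeR adjusted p = 0.464), and Ntsr2 and Sstr3 did not pass either. The Sst difference did not pass with the gate thresholds doubled (log2 difference 1.59, edgeR adjusted p = 0.224).

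The partner genes of the peptides also differed between these neurons. Pcsk1, the convertase that cuts many peptide precursors, was lower in GABAergic-like nuclei, with 13.9 ± 2.21 CPM against 140 ± 31.0 CPM in glutamatergic-like nuclei (log2 difference -3.36 ± 0.14, edgeR adjusted p = 4.25e-10). The related convertase gene Pcsk2 was lower too (-0.99), and of 15 processing genes 3 were higher and 8 lower. Of 10 other neuropeptide precursors tested 5 were higher and 1 lower. Cartpt (log2 difference 2.24), Pnoc (1.53) and Tac1 (1.58) were higher in GABAergic-like nuclei, and Cck, the cholecystokinin precursor gene, was lower (-2.99). Sorl1 was higher (0.81) and Sort1 lower (-0.39).

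Within the GABAergic-like neurons, the lateral septum-like class was compared with medium spiny-like neurons, the principal neurons of the striatum next to the septum. Nts and Sstr2 were higher in the lateral septum-like class, 2 of 5 members tested, where 40.2% of 16270 genes passed, 20.7% higher and 19.5% lower. Nts gave 11.8 ± 4.25 CPM in lateral septum-like nuclei (7.44 to 19.6) and 3.78 ± 3.03 CPM in medium spiny-like nuclei (1.5 to 9.56), higher in 5 of 6 libraries, with a log2 difference of 1.62 ± 0.27 (edgeR adjusted p = 5.36e-05). Sstr2 gave 5.79 ± 0.230 CPM in lateral septum-like nuclei (5.43 to 6.02) and 2.47 ± 1.08 CPM in medium spiny-like nuclei (0.556 to 3.50), with no overlap and a log2 difference of 1.29 ± 0.26 (edgeR adjusted p = 0.000386). Sst gave 3.66 CPM in lateral septum-like and 2.24 CPM in medium spiny-like nuclei (log2 difference 0.68 ± 0.27, edgeR adjusted p = 0.0546). The Sst p lay on the other side of 0.05 without replicate 2 (0.0400), without replicate 5 (0.0230), without the filter on low counts (0.0333) and with doubled gate thresholds (0.0216). Other peptides set these classes further apart: Tac1 gave 1.63 CPM in lateral septum-like and 30.8 CPM in medium spiny-like nuclei (log2 difference -4.29), and for Penk and Pdyn the log2 differences were -3.23 and -4.92. These are the peptide precursor genes by which direct and indirect pathway medium spiny neurons are known. Of 22 signalling genes 8 were higher and 6 lower in lateral septum-like nuclei, with Plcb4 (2.02), a phospholipase gene of the Gq pathway, and the channel genes Kcnj3 (1.53) and Kcnj6 (1.65) among the higher ones. Adcy5, a marker used by the medium spiny gate, is among the lower ones.

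Against MGE-like neurons, Nts and Sstr2 were again higher in the lateral septum-like class and Sst gave no clear direction. Here 2 of 6 members tested passed, where 35.8% of 16362 genes did, 17% higher and 18.8% lower. Nts gave 11.8 ± 4.25 CPM in lateral septum-like and 3.51 ± 1.46 CPM (1.58 to 5.77) in MGE-like nuclei, with no overlap and a log2 difference of 1.71 ± 0.21 (edgeR adjusted p = 2.97e-06). Sstr2 gave 5.79 ± 0.230 CPM in lateral septum-like and 3.19 ± 0.816 CPM (2.05 to 4.42) in MGE-like nuclei, with no overlap and a log2 difference of 0.92 ± 0.21 (edgeR adjusted p = 0.00198). Sst was higher in 3 of 6 libraries and lower in 3 of 6 (log2 difference -0.93 ± 0.47, edgeR adjusted p = 0.140), and without replicate 5, which holds the nucleus with 71 Sst UMIs, the difference was 0.28. Ntsr2 gave 5.02 CPM in lateral septum-like and 7.76 CPM in MGE-like nuclei (log2 difference -0.54 ± 0.25, edgeR adjusted p = 0.110), and it passed without replicate 1 (edgeR adjusted p = 0.0384) and without replicate 2 (0.0401). The astrocyte markers summed to 422 CPM (392 to 475) in lateral septum-like and 559 CPM (339 to 871) in MGE-like nuclei, and their part in the Ntsr2 values was not tested. Thinning to 2000 UMIs ended the Nts call (log2 difference 1.25, edgeR adjusted p = 0.117) and doubled gate thresholds ended the Sstr2 call (1.02, edgeR adjusted p = 0.263). The lateral septum-like nuclei enter this comparison and the one before it, so the results share their values.

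**Figure D2:**
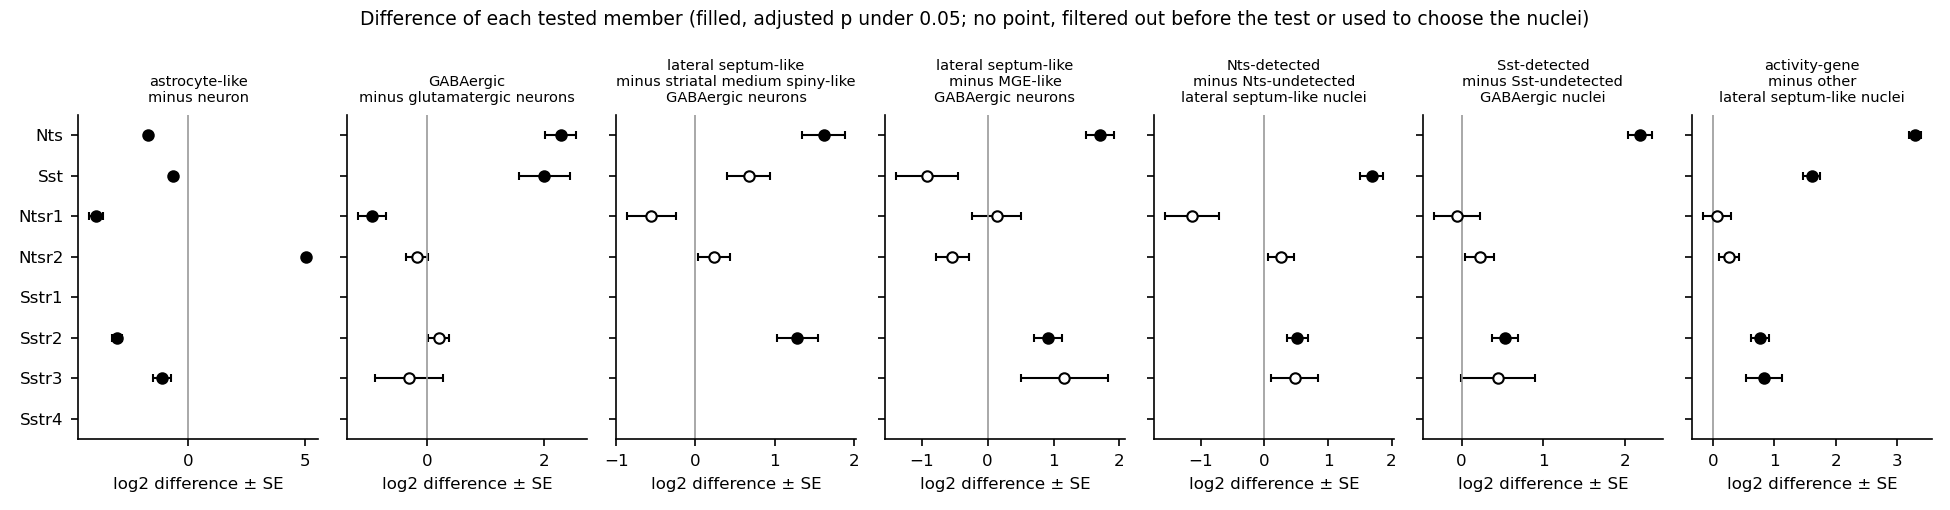
Log2 difference with SE (horizontal axes) of each member in 7 comparisons; filled points passed edgeR's test at an adjusted p of 0.05, and no point marks a member filtered out before the test or used to choose the nuclei. Ntsr2 lies far right at 5.05 in astrocyte-like nuclei against neurons, and Nts lies at 3.29 in lateral septum-like nuclei with activity genes against the others.

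Nts was unevenly placed within the lateral septum-like class. Nuclei were divided by 5 small sets of genes, chosen with earlier results of these data known, and 5955 of 10409 belonged to no set. Nuclei with Col25a1 and Tll1 gave 21.9 ± 12.7 CPM of Nts (lowest 11.1, median 18.6, highest 46.3) from 443 UMIs, and nuclei in no set gave 14 ± 5.09 CPM (8.86 to 22.8). Nuclei with Ano2 and Ntf3 gave 6.52 ± 3.23 CPM and nuclei with Pax6 and Eya4 gave 4.20 ± 4.0 CPM. The lowest means were in nuclei with Col6a3 and Tacr1, 2.31 ± 1.81 CPM, and in nuclei with Calcr, Esr1 and Prlr, genes of hormone receptors, 1.64 ± 0.975 CPM (0.866 to 3.43). All 6 values of the Col25a1 and Tll1 nuclei lay above all 6 of the Calcr, Esr1 and Prlr nuclei. No test was made between these sets.

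Ntsr1 had its own place. Nuclei with Pax6 and Eya4, transcription factor genes, gave 9.99 ± 4.37 CPM of Ntsr1 (lowest 6.01, median 9.27, highest 17.8), while the other sets and the nuclei in no set averaged 0.347 to 1.41 CPM, with no value above 3.19. These 796 nuclei held 113 of the 295 Ntsr1 UMIs of the lateral septum-like class. In the same nuclei Nts gave 4.20 ± 4.0 CPM. Sst had a higher mean in nuclei with Ano2 and Ntf3, 5.37 ± 1.12 CPM (3.97 to 6.97), than in nuclei with Col25a1 and Tll1, 2.45 CPM, or with Calcr, Esr1 and Prlr, 1.11 CPM. Nuclei with Pax6 and Eya4 gave 1.19 CPM of Sst. The nuclei in no set gave 4.37 ± 0.830 CPM of Sst (3.69 to 5.53) and nuclei with Col6a3 and Tacr1 2.92 CPM (1.47 to 5.30). Both overlapped the values of the Ano2 and Ntf3 nuclei. Sstr2 averaged 3.88 to 6.75 CPM over the sets.

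Ntsr2 varied within astrocytes by less than it varied between classes. The astrocyte sets were added after the files were seen. Nuclei with Slc6a11, Itih3 and Lrig1 gave 257 ± 26.3 CPM (lowest 207, median 262, highest 284), and Slc6a11 is a GABA transporter gene of astrocytes outside the cortex. Nuclei with Gldc, Grin2c and Rorb gave 196 ± 9.82 CPM (183 to 207), and nuclei in no set 191 ± 10.05 CPM. Nuclei with Gfap, Adamts18 and Veph1 gave 155 ± 12.9 CPM (lowest 139, median 155, highest 177), below all values of the other sets named here. Each of these groups stood above every value of the other classes with levels, which leave out the 38 fibroblast-like nuclei.

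**Figure D3:**
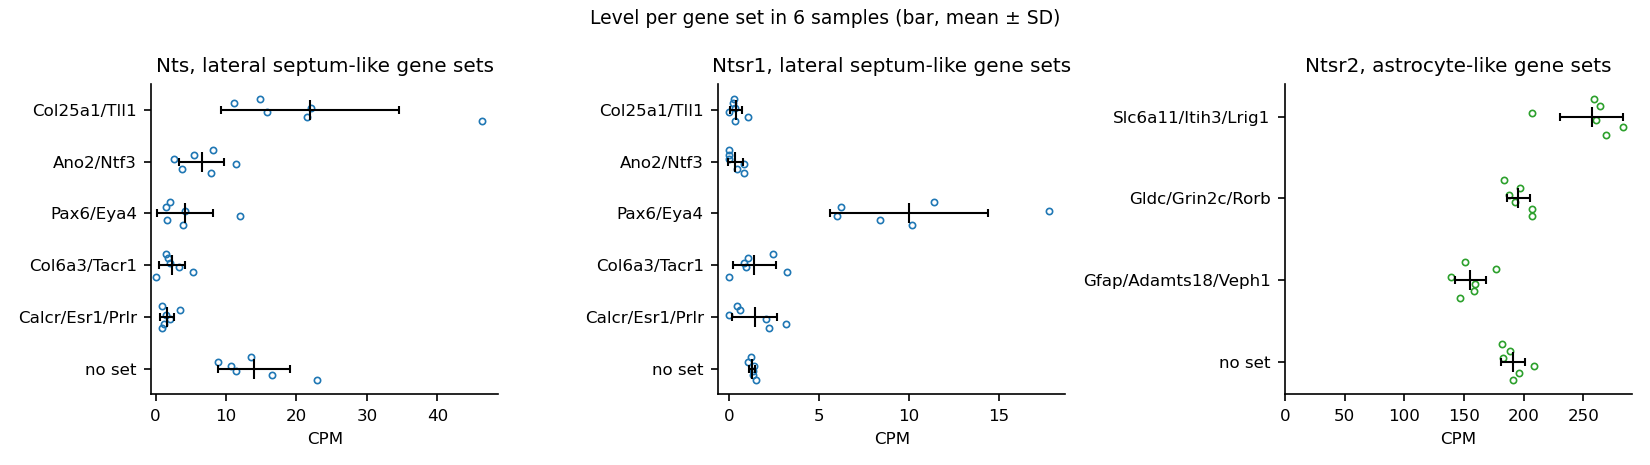
Nts and Ntsr1 in lateral septum-like nuclei by gene set, and Ntsr2 in astrocyte-like nuclei by gene set, in CPM; points are 6 libraries and bars the mean with SD. Nts is highest in the Col25a1 and Tll1 set (21.9 CPM), Ntsr1 in the Pax6 and Eya4 set (9.99 CPM), and Ntsr2 falls in order over the Slc6a11, Gldc and Gfap sets (257, 196 and 155 CPM).

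Lateral septum-like nuclei with Nts were compared with those without it, which asks what else nuclei with the peptide hold. Nts chose the nuclei and is not tested. Nuclei with at least 1 Nts UMI (796, with 103 to 167 in a library) had more Sst and more Sstr2, 2 of 5 members tested, where 16.1% of 15893 genes passed, 9.46% higher and 6.65% lower. Sst gave 9.83 ± 3.30 CPM in Nts-detected nuclei (lowest 5.29, median 9.76, highest 14.6) and 3.02 ± 0.558 CPM in Nts-undetected nuclei (2.33 to 3.94), with no overlap and a log2 difference of 1.69 ± 0.18 (edgeR adjusted p = 3.75e-07). A Sst UMI was found in 13.8 ± 3.50% of Nts-detected and 4.26 ± 1.0% of Nts-undetected nuclei. Sstr2 gave 7.85 ± 2.06 CPM in Nts-detected nuclei (6.09 to 11.8) and 5.57 ± 0.314 CPM in Nts-undetected nuclei (5.15 to 5.89), a log2 difference of 0.52 ± 0.16 (edgeR adjusted p = 0.0332). The Sstr2 p rose above 0.05 without replicate 2 (0.0551), 3 (0.0600), 5 (0.0933) or 6 (0.209). Ntsr1 gave 0.753 CPM in Nts-detected nuclei, from 13 UMIs, and 1.78 CPM in Nts-undetected nuclei, lower in 5 of 6 libraries (log2 difference -1.14 ± 0.42, edgeR adjusted p = 0.0755), and it passed without replicate 4 (0.0252).

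Activity genes were higher in Nts-detected nuclei. Of 15 immediate early genes, which neurons switch on within minutes of strong firing, 14 were higher and 0 lower in Nts-detected nuclei, with a median log2 difference of 1.64 beside 0.00 over all genes. They included the nuclear receptor genes Nr4a3 (2.14) and Nr4a2 (2.57), Egr3 (1.82) and Fosl2 (2.0). Cartpt, the precursor of the CART peptides, gave 16.7 ± 7.29 CPM in Nts-detected and 1.64 ± 0.152 CPM in Nts-undetected nuclei (log2 difference 3.30 ± 0.21, edgeR adjusted p = 1.21e-10). Chga, a core protein of dense-core granules, gave 140 ± 29.3 CPM in Nts-detected and 41.8 ± 4.38 CPM in Nts-undetected nuclei (1.76). Of 15 processing and granule genes 7 were higher and 3 lower. Pcsk2 (-0.82) and Pam (-0.55), the convertase and the amidating enzyme, were lower. Calcrl, a subunit of the CGRP and adrenomedullin receptors (2.23), and the transcription factor gene Etv1 (2.01) were among the 8 with the largest rise. Calcr (-1.60) and Eya4 (-1.56), which mark sets low in Nts, were among the 8 with the largest fall. Nts-detected nuclei were deeper, with a median of 15063 to 19228.5 UMIs per library, against 12747.5 to 16073 in Nts-undetected nuclei. Their astrocyte markers summed to 452 CPM (329 to 586), against 419 CPM (398 to 462) in Nts-undetected nuclei.

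GABAergic-like nuclei with Sst were compared with those without it in the same way. The lateral septum-like nuclei are part of these, so the Nts result here and the Sst result above share nuclei and are not separate evidence. The 752 nuclei with a Sst UMI had more Nts and more Sstr2, 2 of 5 members tested, where 8.32% of 17364 genes passed, 5.27% higher and 3.05% lower. Most of the 752 held a single Sst UMI, among them 414 lateral septum-like and 156 other GABAergic nuclei. A single Sst UMI was also found in 89 of 10846 astrocyte-like nuclei. Nts gave 37.3 ± 21 CPM in Sst-detected nuclei (lowest 13.4, median 35.0, highest 75.7) and 7.97 ± 1.32 CPM in Sst-undetected nuclei (6.70 to 10.3), with no overlap and a log2 difference of 2.18 ± 0.15 (edgeR adjusted p = 2.57e-10). A Nts UMI was found in 18.9 ± 4.50% of Sst-detected and 6.14 ± 0.734% of Sst-undetected nuclei. Of all 19124 GABAergic-like nuclei 254 (1.33%) had 3 or more Nts UMIs and 50 (0.261%) had 3 or more Sst UMIs, and 8 had both. Sstr2 gave 7.16 ± 1.13 CPM in Sst-detected and 5.11 ± 0.301 CPM in Sst-undetected nuclei, higher in 6 of 6 libraries (log2 difference 0.53 ± 0.16, edgeR adjusted p = 0.0339). That p exceeded 0.05 without any 1 of replicates 2 (0.114), 3 (0.0631), 4 (0.0569), 5 (0.0925) and 6 (0.132). Ntsr1 did not pass (log2 difference -0.06 ± 0.28, edgeR adjusted p = 0.954).

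Sst-detected nuclei also had more Npy, Chodl and Nos1 and more of the activity genes. Npy gave 6.11 ± 4.94 CPM in Sst-detected and 0.316 ± 0.112 CPM in Sst-undetected nuclei (log2 difference 4.15 ± 0.38, edgeR adjusted p = 2.22e-08). Chodl gave 6.65 CPM in Sst-detected and 2.11 CPM in Sst-undetected nuclei (1.68). Nos1, the neuronal nitric oxide synthase gene, gave 33.8 CPM in Sst-detected and 14.5 CPM in Sst-undetected nuclei (1.21). In the cortex Sst, Npy, Nos1 and Chodl are known to occur together in sparse projecting neurons. Of 17 interneuron genes tested 5 were higher and 4 lower, and Calb1 was lower (-0.95). Immediate early genes were higher for 13 of 15 and lower for 0, and Cartpt (2.20) and Chga (1.51) were higher here as well. The median depth was 14333 to 18906 UMIs in Sst-detected and 11387 to 14780.5 UMIs in Sst-undetected nuclei.

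Lateral septum-like nuclei with activity genes were compared with the others to see which members follow them. The nuclei are those already divided by Nts, so the results of both comparisons share their values. Nuclei with 3 or more UMIs of 9 immediate early genes (Fos, Fosb, Junb, Egr1, Egr3, Nr4a1, Nr4a3, Arc and Npas4) numbered 1294, with 171 to 261 in a library. Nts, Sst, Sstr2 and Sstr3 were higher there, 4 of 6 members tested, where 25.6% of 15909 genes passed, 15.5% higher and 10.1% lower. Nts gave 45.2 ± 11.7 CPM in activity-gene nuclei (lowest 29.5, median 44.3, highest 62.2) and 4.67 ± 0.850 CPM in the other nuclei (lowest 3.58, median 4.51, highest 5.94). The groups were far apart, with a log2 difference of 3.29 ± 0.10 (edgeR adjusted p = 2.24e-16). Sst gave 8.04 ± 1.77 CPM in activity-gene nuclei (6.02 to 10.1) and 2.72 ± 0.530 CPM in the other nuclei (2.21 to 3.66), a log2 difference of 1.61 ± 0.15 (edgeR adjusted p = 2.14e-08). Sstr2 gave 8.43 ± 1.57 CPM in activity-gene nuclei (6.89 to 10.9) and 5.19 ± 0.622 CPM in the other nuclei (4.18 to 5.75), a log2 difference of 0.77 ± 0.14 (edgeR adjusted p = 0.000295). Neither Sst nor Sstr2 overlapped between the groups. Sstr3 gave 1.42 ± 0.808 CPM in activity-gene nuclei and 0.817 ± 0.201 CPM in the other nuclei, higher in 5 of 6 libraries (log2 difference 0.84 ± 0.30, edgeR adjusted p = 0.0415). That p exceeded 0.05 without replicate 2 (0.0920), 3 (0.155), 4 (0.0559), 5 (0.140) or 6 (0.0742), and without the replicate block (0.0673). The Ntsr1 values were 1.75 CPM in activity-gene and 1.69 CPM in the other nuclei (log2 difference 0.06 ± 0.23, edgeR adjusted p = 0.888) and the Ntsr2 values 5.75 CPM in activity-gene and 4.87 CPM in the other nuclei (0.26 ± 0.16, edgeR adjusted p = 0.278).

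Activity-gene nuclei were 12.4% of the lateral septum-like nuclei and 16.7% of their UMIs, and they held 66.7% of the Nts UMIs (1371 of 2054). They held 37.7% of the Sst UMIs, 24.8% of the Sstr2 UMIs and 17.3% of the Ntsr1 UMIs. No fewer than 3 Nts UMIs were found in 10.3 ± 1.83% of activity-gene nuclei and in 0.582 ± 0.292% of the others. The gate counts UMIs, and activity-gene nuclei were deeper, with a median of 16820 to 20688 UMIs against 12499 to 15771 in the other nuclei. With nuclei thinned to 2000 UMIs before gating, Nts passed (log2 difference 3.41 ± 0.40, edgeR adjusted p = 3.42e-15), and Sst was too low to test. Sstr2 passed as well (2.64 ± 0.60, edgeR adjusted p = 0.000414), but far from the unthinned 0.77. Thinning left 10 to 27 activity-gene nuclei in a library. In groups that small a single UMI of Sstr2 or Nts gives a level far above that of the other nuclei. The thinned fit therefore cannot check the Sstr2 difference for depth, and for Nts it is a weak check that rests on few UMIs. The astrocyte markers summed to 470 CPM (428 to 532) in activity-gene nuclei and 412 CPM (384 to 463) in the others.

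Several granule genes and the other peptide genes that passed were also higher in activity-gene nuclei, though the list of processing genes went both ways. Chga gave 163 ± 22.4 CPM in activity-gene and 28.1 ± 1.17 CPM in the other nuclei (log2 difference 2.56 ± 0.06, edgeR adjusted p = 4.16e-18). Pcsk1, the convertase gene, gave 27.3 ± 6.42 CPM in activity-gene and 6.21 ± 0.719 CPM in the other nuclei (2.16), and Chgb was higher too (1.05). Of 15 processing genes 7 were higher and 5 lower, with Cadps2 lower (-0.65). Cartpt (3.30), Penk (1.5) and Tac1 (1.99) were higher among 5 other neuropeptide precursors tested, and none was lower. Of 5 immediate early genes that the gate did not use 4 were higher, led by Nr4a2 (4.10) and Fosl2 (3.96). In the signalling list 5 of 22 were higher and 6 lower, with Gnai3, a Gi alpha subunit gene, higher (0.97) and Plcb4 (-0.42) and Kcnj6 (-0.36) lower. Met, a growth factor receptor gene (-1.22), was among the 8 with the largest fall.

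**Figure D4:**
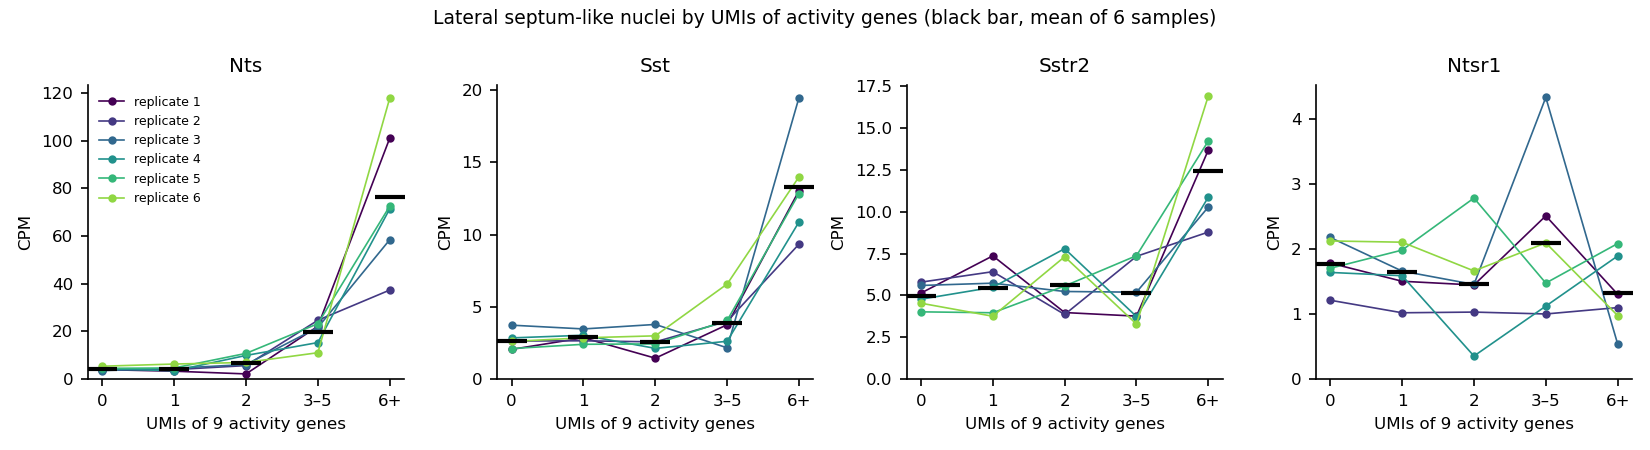
Level in CPM (vertical axes) of Nts, Sst, Sstr2 and Ntsr1 in lateral septum-like nuclei by UMIs of 9 activity genes (horizontal axes, 5 bins); each line is 1 of 6 libraries and the black bar the mean. Nts climbs to 19.7 CPM at 3 to 5 UMIs and 76.4 CPM at 6 or more, Sst and Sstr2 are raised in the last bin, and Ntsr1 shows no climb.

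The level of Nts followed the count of activity-gene UMIs. Nuclei with 0, 1, 2, 3 to 5 and 6 or more such UMIs numbered 5704, 2479, 932, 728 and 566. Their Nts averaged 4.31, 4.37, 6.93, 19.7 and 76.4 CPM, with 37.3 to 118 CPM over the libraries in the last bin against 11.1 to 24.7 CPM in the bin before. Sst averaged 2.66, 2.88, 2.56, 3.86 and 13.3 CPM, and Sstr2 4.98, 5.45, 5.62, 5.11 and 12.5 CPM, so both were raised in the last bin. Ntsr1 averaged 1.32 CPM in the last bin and 1.77 CPM in the first. In other GABAergic nuclei Nts averaged 5.45, 5.67, 5.33, 10.7 and 25 CPM over the same bins, with 10.1 to 46.9 CPM over the libraries in the last.

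Gene set and activity both went with Nts. Activity-gene nuclei made up 23.3 ± 4.35% of the Col25a1 and Tll1 nuclei, 13.9 ± 3.70% of the nuclei in no set and 5.70 ± 2.74% of the Calcr, Esr1 and Prlr nuclei. Within the Col25a1 and Tll1 nuclei, Nts gave 60.0 ± 30.1 CPM with activity genes (lowest 30.1, median 50.8, highest 114) and 6.83 ± 2.05 CPM without (4.61 to 9.78). In nuclei of no set it gave 48.4 ± 14.6 CPM with activity genes (34.4 to 65.5) and 5.74 ± 1.35 CPM without (4.11 to 7.60). Neither of these pairs overlapped. In nuclei with Ano2 and Ntf3 it gave 30.9 ± 19.2 CPM with activity genes (11.9 to 55.5) and 3.12 ± 1.14 CPM without. Those with activity genes were 74 nuclei, as few as 6 in a library. In the 55 Calcr, Esr1 and Prlr nuclei with activity genes Nts gave 4.84 CPM, with values of 0 to 29.0 CPM, and without them 1.37 CPM. Ntsr1 in the Pax6 and Eya4 nuclei gave 13.7 ± 9.46 CPM with activity genes (0 to 28.6) and 9.57 ± 4.45 CPM without (5.05 to 17.9). These ranges overlapped, and the first rests on 17 UMIs in 60 nuclei, as few as 7 in a library. Sst and Sstr2 in nuclei of no set gave 10.1 ± 1.81 and 9.88 ± 1.68 CPM with activity genes, against 3.03 ± 0.475 and 5.20 ± 0.660 CPM without.

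The genes whose levels over the 15 classes were most like each member's were listed as a description among 16375 genes, with Pearson's r of log2(CPM + 1) and no test. For Ntsr2 they were led by the astrocyte genes Aldoc and Slc7a11 (0.975 each) and Lgi4 (0.961). For Nts they included Ano1 (0.914) and Gpc3 (0.902), which like 4 of the 5 genes listed were highest in the pericyte or smooth muscle-like class, where the Nts mean rests on 12 UMIs. The remaining one, Trpc4 (0.866), is a marker of the lateral septum-like class. For Ntsr1 they included Col6a2 (0.917) and Ptger3 (0.910), and for Sstr2 the neurofilament-type gene Ina (0.964) and Prkce (0.946). For Sst they included the vesicular GABA transporter gene Slc32a1 (0.747), a marker of the GABAergic gate. Slc32a1 was highest in the MGE-like class, where the Sst mean rests largely on the nucleus with 71 Sst UMIs in replicate 5. Classes share libraries and depth differs between them, so these values carry no test.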

How the data were processed

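The deposited files hold raw counts of UMIs by gene and barcode, made by the authors with STAR and Cell Ranger 3.1.0, per the submitters' processing notes, while the headers of the deposited matrices give version 5.0.0. The libraries were made with a 3' v3 kit, per the labels' protocols. No source used here gives the genome build or the handling of intron reads, and for nuclei the counting of introns changes the level of long genes.

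Barcodes with fewer than 500 genes (914) were removed. Classes were gated on the summed UMIs of fixed markers per 10000 UMIs, with at least 3 distinct markers detected; the thresholds were set on the data. Barcodes with markers of unrelated classes (2443) were left out, no doublet caller was run, and 1538 barcodes (2.82%) had no class. A class entered with 10 or more nuclei in each library, which leaves out 38 fibroblast-like nuclei. The members, markers and lists were chosen with earlier results of these data known.

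Counts were summed per library and class and divided by the class total (CPM). Differences were tested with edgeR 4.0.16 (glmQLFit and glmQLFTest, TMM, filterByExpr, library as a block) with limma 3.58.1 in R 4.3.3, with p-values adjusted by Benjamini-Hochberg over all genes tested and a threshold of 0.05. The block was used because both classes of a comparison come from the same library. Because depth limits detection, each comparison was also run with nuclei thinned to 2000 UMIs. Members that then fell below the filter on low counts have no thinned difference, so depth was not checked for them in this way. The other alternatives were RLE scaling, DESeq2 1.42.0, no filter on low counts, no block, each library left out, 1000 genes per barcode, doubled gate thresholds, mixed barcodes kept and higher UMI minimums. A minimum of 3 UMIs of a peptide was added after the data were seen. The scripts were tested on simulated data, with numpy 2.4.6, scipy 1.17.1 and pandas 2.3.3 in Python 3.11.15.

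All 8 members are reported. Of each context list up to 4 genes with the smallest adjusted p were eligible to be named. In the comparisons of detected nuclei and activity genes the 8 with the largest difference in each direction at 10 CPM or more were eligible too. Likeness was computed for members at 5 CPM or more in any class. Promoter sequences are from RefSeq, GRCm38.p6.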

Additional observations from a re-analysis of the deposited data

Results flagged for a closer look

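In 10 of the 67 groups of 6 libraries looked at (14.9%), 1 library stood apart from the other 5 by Dixon's criterion. Chance meets it in about 1 in 20 groups of normally distributed values. Some levels here rest on few UMIs, so that rate is no measure for these groups. Nts gave 9.56 CPM in medium spiny-like nuclei of replicate 3, against 1.5 to 4.45 CPM in the others, and 25 CPM in nuclei with Chat and Slc5a7 of replicate 4, against 1.34 to 7.74 CPM. Sst gave 35.8 CPM in MGE-like nuclei of replicate 5, against 0 to 6.16 CPM, and 4.71 CPM in ependymal-like nuclei of replicate 3, against 1.04 to 2.16 CPM. Sst in nuclei with Chat and Slc5a7 gave 1.99 CPM in replicate 6, from 1 UMI. Ntsr2 gave 9.56 CPM in other GABAergic nuclei of replicate 4, against 5.11 to 6.60 CPM, and 4.47 CPM in other neurons of replicate 3, against 7.30 to 7.83 CPM. Sstr3 gave 3.31 CPM in glutamatergic-like nuclei of replicate 4, against 0 to 1.17 CPM. In pericyte or smooth muscle-like nuclei, Sstr2 gave 7.67 CPM in replicate 3 and Sstr3 6.19 CPM in replicate 5, each from 1 UMI with the other libraries at 0.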

How the results depend on the processing

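Over 39 differences of members and their 539 alternatives, 488 kept direction and side of the threshold, 25 lost a call, 10 gained one, 14 changed sign (none of them called) and 2 had no adjusted p. Of 21 calls 15 held under every alternative run for that call. Some of the 15 had fewer alternatives run than another call of the same comparison. These were Sst in activity-gene nuclei (14, not 15) and in Nts-detected nuclei (15, not 16). Ntsr1 between GABAergic-like and glutamatergic-like nuclei (13, not 14) was another. So were Sstr2 against medium spiny-like nuclei (13, not 14) and Sstr3 in astrocyte-like nuclei (12, not 14). Those calls were not tested under the missing alternatives. The calls lost were Sst in GABAergic-like nuclei, Nts and Sstr2 against MGE-like nuclei, Sstr2 in Nts-detected (6 of 16 alternatives) and Sst-detected nuclei (9 of 16), and Sstr3 in activity-gene nuclei (7 of 13). The fit without the replicate block ended only the last (edgeR adjusted p = 0.0673). The causes were not tested, beyond the fewer nuclei and UMIs that doubled gates and thinning leave. Low counts limit Sstr1, Sstr3 and Sstr4 most.

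With doubled gate thresholds the genes called were 1905 (GABAergic against glutamatergic), 3469 (against medium spiny), 2160 (against MGE, with 1 member) and 2398 (activity), and Nts-detected and Sst-detected nuclei called 1 member each. With thinning they were 2644 (1 member), 2835 (1 member), 1775 (0 members) and 772 (2 members), with 480 (1 member) for Nts-detected and 268 (1 member) for Sst-detected nuclei. Without a filter 4 members passed against medium spiny-like and 1 in Sst-detected nuclei, and DESeq2 passed 1 in Nts-detected nuclei. With 2 or more Sst UMIs 716 genes passed, and with 3 or more 487 with 1 member. Where edgeR called 0 members after thinning, Nts alone passed the filter on low counts (unadjusted p = 0.0262). The same class was highest for 4 of 8 members with doubled thresholds and for 5 by the thinned share.

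With 1 library left out, the genes called ranged over 14683 to 14927 (astrocyte-like against neurons, 6 members each time), 4236 to 5214 (GABAergic against glutamatergic, 3 members), 5752 to 6237 (against medium spiny, 2 to 3), 5061 to 5606 (against MGE, 2 to 3), 2098 to 2314 (Nts-detected, 1 to 3), 1154 to 1340 (Sst-detected, 1 to 2) and 3432 to 3675 (activity, 3 to 4).

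Changes of sign, none called: with doubled thresholds, Ntsr2 was 0.24 between GABAergic-like and glutamatergic-like nuclei, -0.12 against medium spiny-like and 0.27 against MGE-like nuclei, and Sst 0.69 against MGE-like nuclei. With thinning, Sstr2 was -0.65 between GABAergic-like and glutamatergic-like nuclei and Ntsr2 -0.88 in Sst-detected nuclei. Over the fits that leave out 1 library, Sstr3 ranged over -0.52 to 0.40 between GABAergic-like and glutamatergic-like nuclei (positive without replicate 4), Sst over -1.19 to 0.28 against MGE-like nuclei (positive without replicate 5) and Ntsr1 over -0.076 to 0.26 against MGE-like nuclei (negative without replicate 3). Ntsr1 ranged over -0.35 to 0.10 in Sst-detected nuclei (positive without replicate 3, at 0.077, and 4) and over -0.038 to 0.16 in activity-gene nuclei (negative without replicate 3). Ntsr1 was 0.062 with 2 or more Sst UMIs and -0.36 with 4 or more activity-gene UMIs.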

Other observations

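Interneuron genes separated the lateral septum-like from the MGE-like class. Of 16 tested, 0 were higher and 12 lower in lateral septum-like nuclei, among them Lhx6, which gave 0.506 ± 0.161 CPM in lateral septum-like and 51.3 ± 11.7 CPM in MGE-like nuclei (SD, n = 6 each; log2 difference -6.53), Sox6 (-3.40), Maf (-4.00) and Elavl2 (-2.69). Lhx6 and Maf are also markers that gated the MGE-like class, so their differences describe the gate. Immediate early genes were higher in lateral septum-like nuclei for 9 of 14 tested and lower for 0, with Egr3 at 14.1 ± 2.74 CPM in lateral septum-like and 2.33 ± 1.16 CPM in MGE-like nuclei (log2 difference 2.62). Penk, the enkephalin precursor gene, was the neuropeptide of 5 tested that passed, with 3.94 ± 0.973 CPM in lateral septum-like and 10.8 ± 2.07 CPM in MGE-like nuclei (-1.31).

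Between astrocyte-like nuclei and neurons, 8 of 10 other neuropeptide precursors were lower in astrocyte-like nuclei and 0 higher, with Pnoc at 1.63 CPM in astrocyte-like nuclei and 4.84 CPM in neurons (log2 difference -1.64). Between lateral septum-like and medium spiny-like nuclei, the synaptic gene Nxph1 gave 1465 CPM in lateral septum-like and 223 CPM in medium spiny-like nuclei (2.86). Bdnf, a growth factor gene that activity induces, was lower in GABAergic-like nuclei, with 2.24 ± 0.404 CPM against 22.6 ± 3.82 CPM in glutamatergic-like nuclei (-3.37), and Egr3 was higher (2.63). Within the lateral septum-like class, 6 of the 185 nuclei with 3 or more Nts UMIs also had 3 or more Sst UMIs.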
